A study of Mus musculus with 3 samples.

Results

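The chromatin over 35 genes of the cell division cycle was read in nuclei of mouse hearts, out of 21728 protein-coding genes on the autosomes and X. The list was given by gene name with no threshold on a measured value, though earlier results of these data were known when it was drawn up. It holds 3 D-type cyclins, 4 cyclin-dependent kinases, 2 E2F factors, 5 cyclins of types E, A and B, 11 genes of S phase entry, DNA replication and nucleotide supply, 8 genes of mitosis, and the proliferation markers Mki67 and Top2a. The hearts came from wild-type mice in 3 groups of 1 library each: sunitinib plus Yoda1, sunitinib alone, and vehicle. Sunitinib is a cancer drug that blocks several receptor tyrosine kinases and can injure the heart, and Yoda1 opens the mechanosensitive channel PIEZO1. The titles name the sunitinib library only by its drug class and the combination only by Yoda1, so these groups rest on the design text, and the 3 months in the titles may mean age or time of treatment. The labels give neither sex nor the number of animals pooled per library. With 1 library per group there was no test between groups. Levels are given as fragments per 1000000 fragments of the same nuclei or library (FPM). Gene coordinates are those of GENCODE M21 on mm10. All intervals are exact 95% intervals that cover counting error alone.

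Cells enter the cycle when D-type cyclins with Cdk4 or Cdk6 phosphorylate the retinoblastoma proteins and release E2F factors, which switch on the genes of DNA replication. Cyclins E and A with Cdk2 carry the cell through replication, and cyclin B with Cdk1 through mitosis. Genes of the late cycle are held silent in resting cells, and switched on in dividing ones, by complexes that bind a short promoter element called the cell cycle genes homology region, or CHR. Most adult heart muscle cells have left the cycle, whereas developing T cells in the thymus divide fast at some stages only.

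Only the chromatin accessibility (ATAC) arm of the single-nucleus multiome libraries was read, as fragments cut by the Tn5 transposase, while the RNA arm is not analysed here. Accessibility of a cell cycle gene is a state of its chromatin and is not a count of dividing cells. The sunitinib plus Yoda1 library held 583792 fragments and 12 called nuclei, the sunitinib library 23653823 and 3872, and the vehicle library 18704581 and 2702. In 42.1% of its fragments the sunitinib plus Yoda1 library shared start and end with another barcode, so it was read only as a whole library, keeping the 258020 fragments that had 100 read pairs or more. The sunitinib and vehicle libraries shared 22 barcodes of called nuclei. Nuclei were clustered with all tiles over cell cycle genes left out, so these genes did not shape the classes. T lymphocyte-like nuclei made up 35.4% of nuclei with sunitinib (1370) and 9.03% with vehicle (244). They carried 13 of 13 T cell markers and 9 of 10 genes of immature thymocytes at 2-fold or more over the other nuclei, led by Cd8b1, Dntt and Cd3d. Genes of immature thymocytes summed to 626.6 FPM under sunitinib and 310.1 under vehicle over all nuclei (9 of 10 higher). The labels do not say whether thymus was collected with the heart, and its part in the results was not tested. Cardiomyocyte-like nuclei, with 12 of 12 heart muscle markers, numbered 293 and 222 in the sunitinib and vehicle libraries. The B lymphocyte-like cluster also carried 7 T cell markers at 2-fold or more. A cluster led by Npr3 carried 3 lymphatic and 4 endocardial markers at that fold and was left without a cell type name. A cluster with a median start-site enrichment of 12.3, against 26.5 to 34.5 in the other clusters, was also left unnamed and is called the low-enrichment cluster.

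Promoters of the list carried the letters known from cell cycle promoters more often than promoters in general. RefSeq promoters on GRCm38.p6 (250 bases before to 50 after a start) were at hand for 29 of the 35 genes, in 33 records, and for 16433 protein-coding genes. Ccnd1, Ccnd2, Ccna2, Ccne2, Mcm4 and Aurkb had no record. The E2F letters TTTCCCGC, TTTCGCGC, TTTGCCGC or TTTGGCGC, on either strand, were in 10 of 29 genes (34.5%), against 3.33% of all genes with a promoter. CCAAT, the box bound by NF-Y, was in 22 of 29 (75.9%), against 42.2%. The CHR letters TTTGAA or TTCGAA were in 13 of 29 (44.8%), against 19.4%. E2F letters were in 7 of 10 replication genes and 0 of 7 mitosis genes. CHR letters were in 6 of 7 mitosis genes and both proliferation markers, but in 2 of 10 replication genes, near the share of all genes. CCAAT did not divide by role, with 8 of 10 replication genes and 6 of 7 mitosis genes. In 1 promoter of the list matches of 2 of these motifs overlapped. These matches are letters in a window, not sites of binding. The promoters below show both kinds, with matches of the E2F, CCAAT and CHR letters on either strand in capitals. Mcm5 and Mcm6, subunits of the replicative helicase, carry E2F letters and CCAAT. Top2a, the topoisomerase that untangles chromosomes, Plk1, the kinase that drives mitotic entry, and Ccnb2, cyclin B2, carry CHR letters. The upstream promoter of Ccnd3, cyclin D3, carries none and is shown for its fragments.
Mcm5, chr8:75109259-75109558, plus strand: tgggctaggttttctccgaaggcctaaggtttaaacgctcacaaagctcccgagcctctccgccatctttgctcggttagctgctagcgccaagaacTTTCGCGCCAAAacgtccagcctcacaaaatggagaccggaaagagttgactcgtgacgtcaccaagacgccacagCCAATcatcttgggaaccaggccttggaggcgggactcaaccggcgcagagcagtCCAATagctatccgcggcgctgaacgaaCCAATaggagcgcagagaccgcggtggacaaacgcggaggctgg
Mcm6, chr1:128359656-128359955, minus strand: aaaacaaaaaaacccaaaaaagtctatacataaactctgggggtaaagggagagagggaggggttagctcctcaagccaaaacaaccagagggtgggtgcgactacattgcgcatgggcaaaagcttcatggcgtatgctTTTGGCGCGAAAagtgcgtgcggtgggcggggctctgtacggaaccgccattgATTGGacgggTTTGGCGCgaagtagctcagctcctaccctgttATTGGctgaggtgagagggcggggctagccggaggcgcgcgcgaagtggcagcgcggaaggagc
Top2a, chr11:99024140-99024439, minus strand: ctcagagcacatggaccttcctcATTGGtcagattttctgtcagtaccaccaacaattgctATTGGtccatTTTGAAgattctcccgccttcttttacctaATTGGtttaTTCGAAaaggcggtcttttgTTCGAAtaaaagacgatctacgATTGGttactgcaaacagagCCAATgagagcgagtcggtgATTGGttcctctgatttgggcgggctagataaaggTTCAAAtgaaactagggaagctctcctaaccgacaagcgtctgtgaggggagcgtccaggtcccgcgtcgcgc
Plk1, chr7:122159185-122159484, plus strand: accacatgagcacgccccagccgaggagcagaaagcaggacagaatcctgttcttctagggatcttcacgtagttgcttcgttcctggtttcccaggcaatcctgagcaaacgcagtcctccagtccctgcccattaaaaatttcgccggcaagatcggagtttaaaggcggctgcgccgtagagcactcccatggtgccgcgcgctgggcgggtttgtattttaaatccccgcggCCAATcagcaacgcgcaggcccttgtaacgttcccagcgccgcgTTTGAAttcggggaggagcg
Ccnb2, chr9:70421505-70421804, minus strand: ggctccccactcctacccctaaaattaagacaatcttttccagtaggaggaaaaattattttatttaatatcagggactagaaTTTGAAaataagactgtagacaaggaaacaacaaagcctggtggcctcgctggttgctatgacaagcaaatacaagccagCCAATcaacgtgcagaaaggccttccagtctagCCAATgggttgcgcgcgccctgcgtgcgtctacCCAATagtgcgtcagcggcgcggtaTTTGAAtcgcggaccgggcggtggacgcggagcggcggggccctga
Ccnd3, chr17:47504801-47505100, plus strand: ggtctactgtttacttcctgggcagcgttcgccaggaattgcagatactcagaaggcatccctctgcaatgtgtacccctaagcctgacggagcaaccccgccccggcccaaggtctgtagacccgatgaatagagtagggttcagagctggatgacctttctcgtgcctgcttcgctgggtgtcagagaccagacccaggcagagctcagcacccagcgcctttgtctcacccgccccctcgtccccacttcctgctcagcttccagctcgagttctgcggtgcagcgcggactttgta

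By their median, the start sites of the list were more accessible than those of all genes in each class of nuclei, heart muscle included. This does not hold for each single gene. Within 1 kb of start sites, 34 of 35 genes were above the median of all genes per kilobase in cardiomyocyte-like nuclei of the sunitinib library and 34 of 35 in those of the vehicle library. The median density there was 6.39 FPM per kilobase for the list against 2.36 for all genes in the sunitinib library, and 6.18 against 2.46 in the vehicle library. In T lymphocyte-like nuclei the medians were 11.0 for the list against 2.71 for all genes (sunitinib) and 10.8 against 2.73 (vehicle). The lowest count was 25 of 35, in the low-enrichment cluster of the vehicle library. Within the list, Cdt1, which loads the helicase onto origins, had the densest start sites in the nuclei of both libraries together (17.9 FPM per kilobase), and Ccnb2 the sparsest (3.18). Genes differed in where their fragments lay. Within 1 kb of start sites lay 94.9% of the fragments of Mcm4 and 93.9% of those of Ccna2, but 22.4% for E2f2, 24.1% for Ccnd3, 24.4% for Cdk6 and 27.6% for Ccnd1. Read over the gene body plus 2 kb upstream, 11 of the 35 overlap another protein-coding gene (Ccnd1, Ccnd3, Cdk2, Cdk4, Ccne2, Ccna2, Cdt1, Mcm4, Mcm7, Cdc20 and Aurka), and fragments there cannot be assigned to 1 of the pair.

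**Figure D1:**
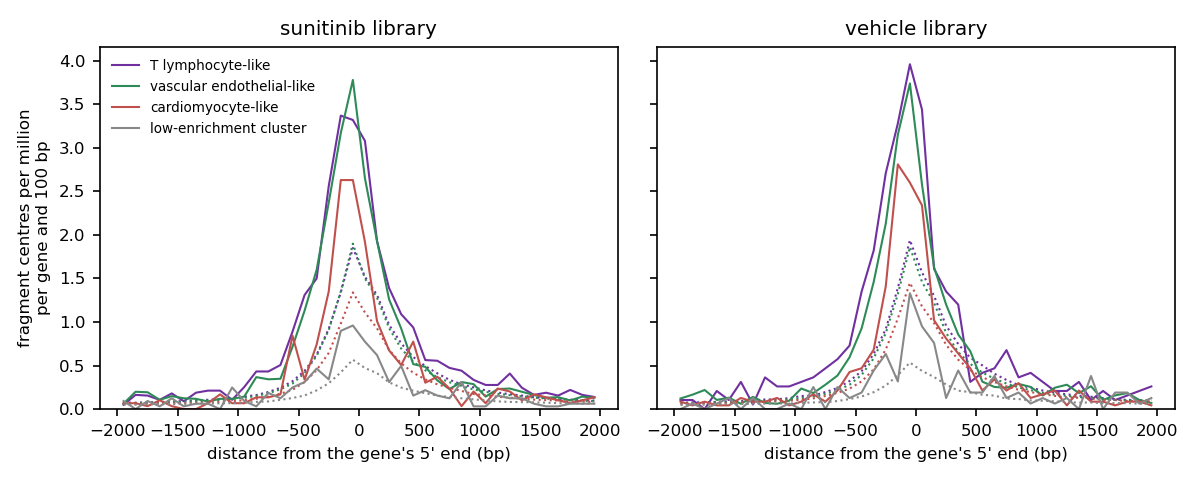
Fragment centres per 1000000 fragments (FPM), per gene and 100 bp (y axis), by distance from the 5' end of the gene (x axis, bp), in the sunitinib library (left) and the vehicle library (right). Solid lines are the 35 cell cycle genes, dotted lines all protein-coding genes, and colours are 4 classes. In cardiomyocyte-like nuclei the cell cycle genes had 2.63 FPM in the 100 bp before the start (sunitinib library) and 2.60 (vehicle library), against 1.34 and 1.45 for all genes.

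The summed level of the 35 genes over gene bodies plus 2 kb upstream was low in heart muscle nuclei in both libraries. It was highest in the T lymphocyte-like, B lymphocyte-like and myeloid-like classes, though the intervals of the last 2 met those of other classes. It was 1829.6 FPM (1785.1 to 1875.0) in T lymphocyte-like nuclei of the sunitinib library and 1863.7 (1751.3 to 1981.5) in those of the vehicle library. B lymphocyte-like nuclei stood at 1840.5 and 1714.6 and myeloid-like nuclei at 1860.8 and 1666.9 in the sunitinib and vehicle libraries. The intervals of these 3 classes overlapped within each library, so their order is not resolved. Vascular endothelial-like nuclei had 1506.1 (sunitinib) and 1452.2 (vehicle), mural-like nuclei 1434.5 and 1500.1, and fibroblast-like nuclei had 1244.9 and 1209.9. With vehicle the mural-like interval (1391.2 to 1615.2) met the B lymphocyte-like (1557.6 to 1883.1) and myeloid-like ones (1555.4 to 1784.3). With sunitinib the epicardial or mesothelial-like interval (1275.7 to 1764.8) met those of the same 2 classes (lower bounds 1718.3 and 1735.7). Cardiomyocyte-like nuclei had 999.4 (933.2 to 1069.0) (sunitinib library) and 1012.7 (937.9 to 1091.8) (vehicle library), the lowest of the named classes on this scale, where their intervals did not meet those of the other named classes. Per fragment at start sites their intervals met those of fibroblast-like, mural-like and epicardial or mesothelial-like nuclei in both libraries, and those of B lymphocyte-like and myeloid-like nuclei with vehicle. There, with vehicle, mural-like nuclei (3148.6) stood beside B lymphocyte-like (3123.1) and myeloid-like nuclei (3141.0). The T lymphocyte-like interval (3135.2 to 3705.5) also met the mural-like one (2854.7 to 3464.7). In FPM only the low-enrichment cluster lay below cardiomyocyte-like nuclei, with 724.2 (sunitinib) and 671.6 (vehicle). Per fragment at start sites that cluster had 2462.6 and 2644.1, against 2715.3 and 2606.5 in cardiomyocyte-like nuclei.

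**Figure D2:**
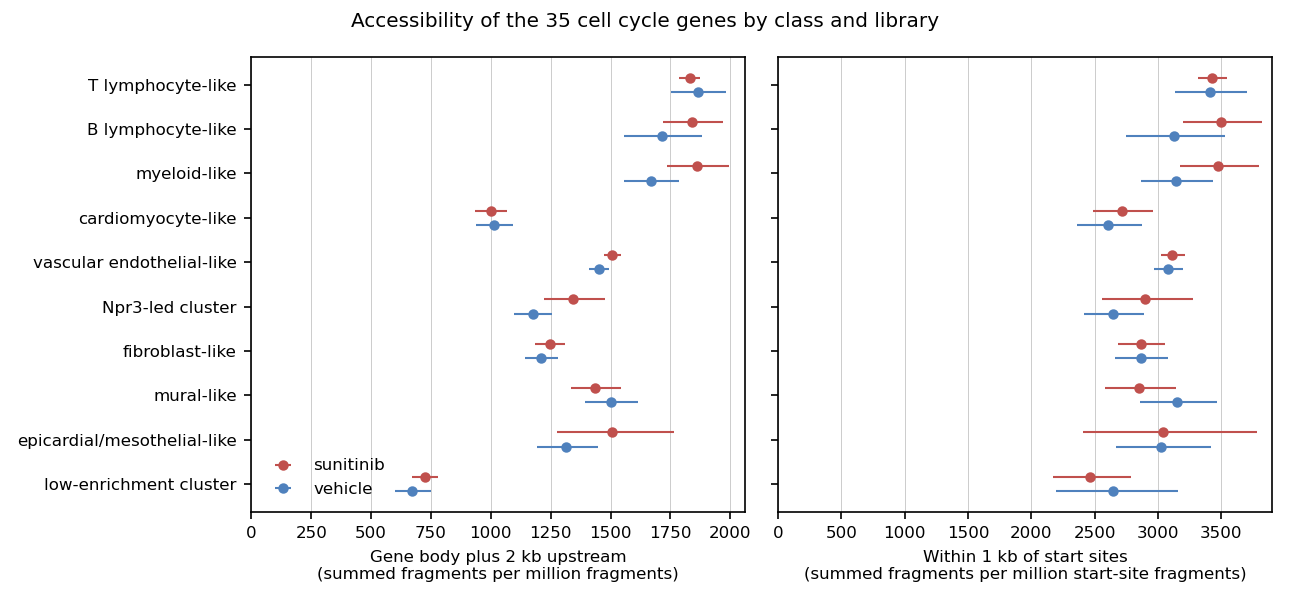
Summed fragments of the 35 cell cycle genes by class, in the sunitinib library (red, above) and the vehicle library (blue, below), with exact Poisson intervals. The left panel is gene body plus 2 kb upstream in FPM, and the right panel is within 1 kb of start sites per 1000000 fragments at the start sites of all genes. Cardiomyocyte-like nuclei have 999.4 and 1012.7 on the left and 2715.3 and 2606.5 on the right.

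Part of this order moved with the share of fragments that fell at start sites. That share was 22.2% in cardiomyocyte-like nuclei against 27.4% in all nuclei of the sunitinib library, and 23.6% against 26.6% in the vehicle library. Cardiomyocyte-like over other nuclei, the summed list had a log2 ratio of -0.61 (-0.72 to -0.52) (sunitinib library) and -0.46 (-0.58 to -0.35) (vehicle library). The median of the list was -0.51 (sunitinib library) and -0.39 (vehicle library), against -0.19 and -0.14 for all genes. Set against fragments at start sites instead, the ratios were -0.29 (-0.39 to -0.19) and -0.28 (-0.39 to -0.17), where the medians of all genes were 0.13 and 0.05. In FPM, 3 of 35 genes were higher with sunitinib (37.7% of all genes were) and 8 with vehicle (40.9%), and against start-site fragments 13 (58.2%) and 12 (53.3%). In FPM and the sunitinib library 17 of 35 genes were at least 1.5-fold lower in cardiomyocyte-like nuclei (26.6% of all genes were) and 0 higher (13.8%), and in the vehicle library 13 were lower (23.9%) and 0 higher (14.0%). Against start-site fragments the genes at least 1.5-fold lower were 6 with sunitinib (13.8% of all genes) and 8 with vehicle (17.3%), close to the shares of all genes. E2f2, an E2F factor that activates transcription, was the lowest in the sunitinib library, with 22.4 FPM in cardiomyocyte-like and 64.2 in other nuclei, a log2 ratio of -1.48 (-2.26 to -0.86), and it had 25.4 and 52.3 in the vehicle library (-1.01, -1.84 to -0.35). Ccnd3 had 105.0 in cardiomyocyte-like and 235.4 in other nuclei (sunitinib, -1.16, -1.49 to -0.86) and 117.8 and 199.4 (vehicle, -0.75, -1.10 to -0.43). Mki67, the marker used to count dividing cells, stood at -0.63 (-1.44 to 0.01) (sunitinib library) and 0.18 (-0.57 to 0.80) (vehicle library), with 18 and 21 fragments in cardiomyocyte-like nuclei. Its direction, and that of Top2a (-0.73 and 0.55), was not shared by the libraries at this depth.

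T lymphocyte-like nuclei were set against all other nuclei of the same library. In the sunitinib library 30 of 35 genes were higher (56.8% of all genes were), and in the vehicle library 30 of 35 (55.6%). The summed log2 ratio was 0.41 (0.37 to 0.46) (sunitinib library) and 0.49 (0.39 to 0.58) (vehicle library), and the medians were 0.36 and 0.63, against 0.09 and 0.10 for all genes. By at least 1.5-fold 13 genes were higher with sunitinib (17.0%) and 18 with vehicle (21.6%). The same 30 genes were higher in both libraries (47.0% of all genes were). Aurka and Aurkb, the mitotic Aurora kinases, count among them in the vehicle library only through the 0.5 added to each side of a ratio (0.00 and 0.02). Their levels there were slightly below those of other nuclei, at 23.7 against 24.4 FPM for Aurka and 16.4 against 17.0 for Aurkb. The 5 lower in both were Ccnd1, Ccnd2, Cdk2, Cdk4 and Mcm7 (34.3% of all genes were lower in both). At least 1.5-fold higher in both were 10 genes (12.1% of all genes): Mki67, Ccnd3, Ccnb1, Ccnb2, E2f2, Mcm2, Rrm2, Bub1, Plk1 and Kif11. Ccnd1 was the 1 gene at least 1.5-fold lower in both (15.3%). Within 1 kb of start sites 5 genes were at least 1.5-fold higher in both (Ccnb1, Ccnb2, Rrm2, Plk1 and Kif11), near the 13.4% of all genes, and Ccnd1, Ccnd2 and Mcm7 were lower by that fold (13.8%). Against start-site fragments the summed ratio was smaller, at 0.25 (0.20 to 0.29) (sunitinib library) and 0.30 (0.21 to 0.39) (vehicle library), where all genes had medians of -0.07 and -0.09.

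**Figure D3:**
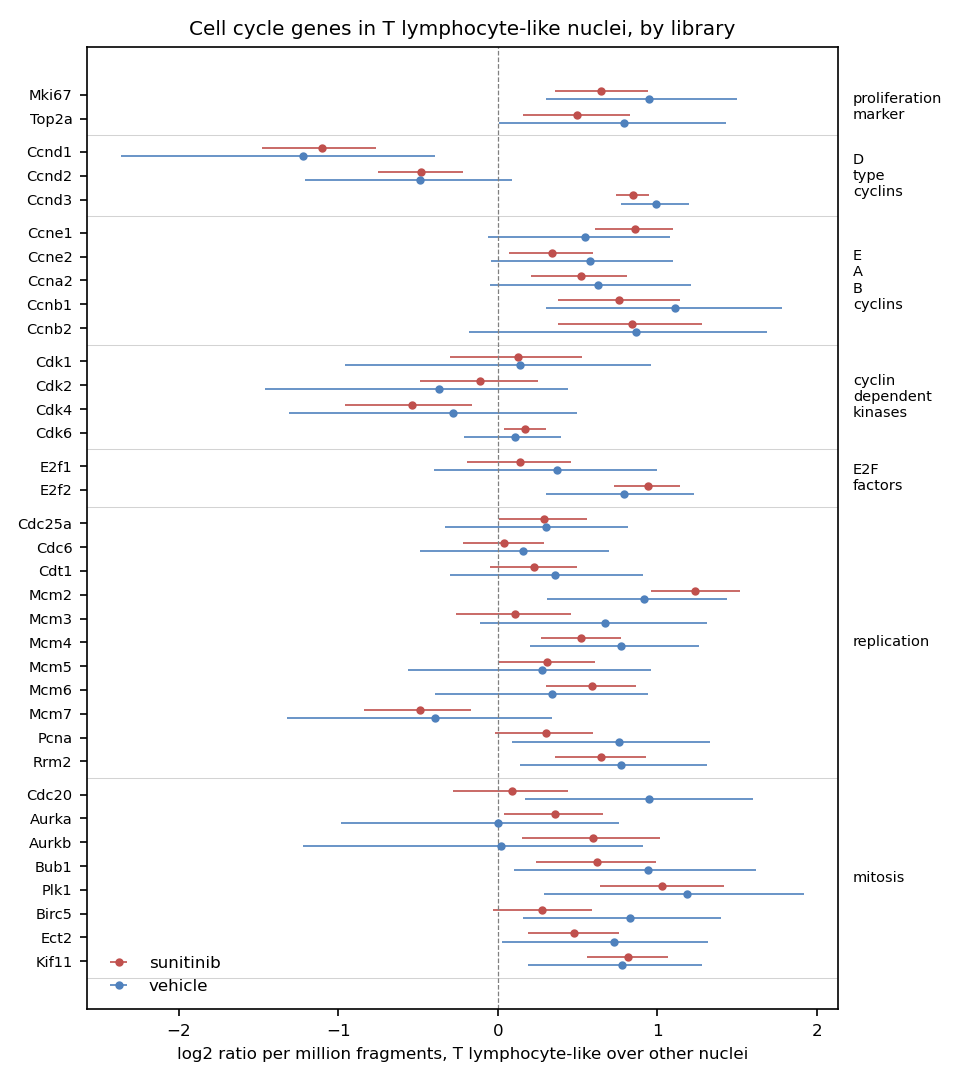
Log2 ratio of FPM in T lymphocyte-like over other nuclei (x axis), over gene body plus 2 kb upstream, for each of the 35 genes by role, in the sunitinib library (red, above) and the vehicle library (blue, below), with exact conditional intervals. Most points lie right of 0, with Ccnd1 at -1.10 and -1.22 and Ccnd3 at 0.85 and 0.99.

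The D-type cyclins, which link outside signals to the cycle, did not move as 1 group across the classes. Ccnd3 (chr17:47505051-47599691) had 335.6 FPM in T lymphocyte-like and 186.6 in other nuclei of the sunitinib library, and 358.9 and 180.9 in the vehicle library, with log2 ratios of 0.85 (0.74 to 0.95) and 0.99 (lower bound 0.77). Ccnd1 (chr7:144929931-144939925, cyclin D1) had 22.0 in T lymphocyte-like and 47.5 in other nuclei (sunitinib, -1.10, -1.48 to -0.76) and 18.2 and 44.3 (vehicle, -1.22, -2.36 to -0.39). Ccnd2 (chr6:127125162-127152193, cyclin D2) had 43.1 and 60.1 (sunitinib, -0.48, -0.75 to -0.22) and 40.1 and 57.6 (vehicle, -0.49, -1.21 to 0.09). Across classes Ccnd1 was highest in vascular endothelial-like nuclei (58.3 in the sunitinib and 53.9 in the vehicle library) and myeloid-like nuclei (54.3 and 54.2), whose intervals overlap. Ccnd2 had 109.0 and 75.4 in epicardial or mesothelial-like and 83.8 and 79.0 in mural-like nuclei, though the epicardial values rest on 11 and 24 fragments. The intervals of the Npr3-led cluster (87.7 and 59.1) and of B lymphocyte-like nuclei (78.7 and 58.9) overlap these, so its highest class is not resolved. Ccnd3 was highest in T lymphocyte-like nuclei and then in B lymphocyte-like nuclei (330.1 and 278.6), and these intervals overlap in both libraries. At start sites the directions were the same for Ccnd1 and Ccnd3, though the Ccnd3 interval of the vehicle library includes 0. Ccnd1 had 14 fragments in T lymphocyte-like and 129 in other nuclei of the sunitinib library (-1.73, -2.68 to -0.97). In the vehicle library it had 0 and 99, where 0 allows up to 6.72 FPM against 12.9. Ccnd3 at start sites had 62.8 FPM in T lymphocyte-like and 48.8 in other nuclei (sunitinib, 0.37, 0.13 to 0.60), and 58.3 and 48.9 (vehicle, 0.27, -0.31 to 0.78).

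**Figure D4:**
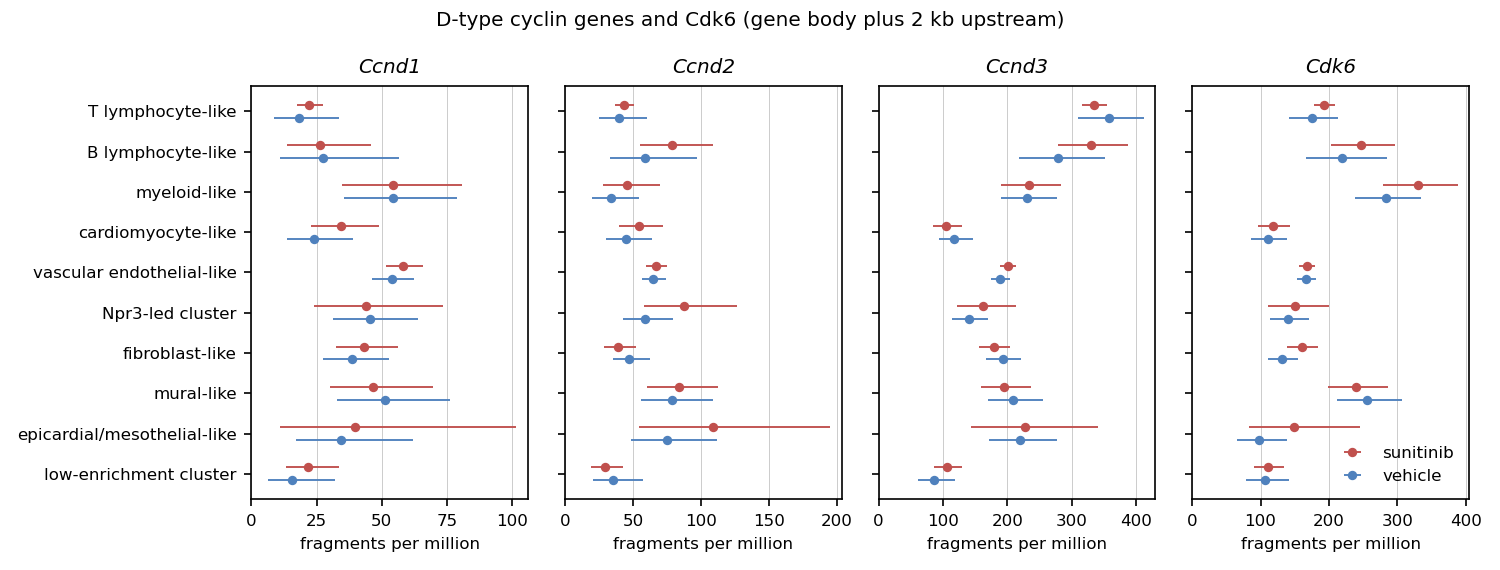
FPM over gene body plus 2 kb upstream (x axis, from 0) of Ccnd1, Ccnd2, Ccnd3 and Cdk6 by class, in the sunitinib library (red, above) and the vehicle library (blue, below), with exact Poisson intervals. Ccnd3 is highest in the lymphocyte-like classes (335.6 and 358.9 in T lymphocyte-like nuclei), and Cdk6 in myeloid-like nuclei (330.5 and 283.2).

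The Ccnd3 ratio was larger over the gene than at its start sites. Windows of 1 kb away from start sites were chosen by their ratio in the sunitinib library, among those with at least 20 T lymphocyte-like fragments, and then read in the vehicle library. This choice favours windows open in T lymphocyte-like nuclei, so it does not show where a gene is lower in them. In Ccnd3 the highest ratio was in an intronic window 29.5 kb into the gene, with 35 fragments in T lymphocyte-like and 8 in other nuclei (sunitinib, 3.49) and 2 and 5 (vehicle, 2.67, -0.91 to 5.10). The next, 52.5 kb in, had 22 and 5 fragments (sunitinib, 3.46) and 0 and 8 (vehicle), where 0 allows up to 6.72 FPM against 1.04 and decides nothing. The third, an intronic window 26.5 kb in (chr17:47531051-47532050), had 79 fragments in T lymphocyte-like and 25 in other nuclei of the sunitinib library, or 22.6 and 2.65 FPM. In the vehicle library, not used to choose it, it had 11 and 8 fragments, with a log2 ratio of 4.24 (2.82 to 5.79). Of the 3, it alone had a vehicle interval off 0. The upstream Ccnd3 promoter printed above was also higher, with 9.14 FPM in T lymphocyte-like and 4.34 in other nuclei (sunitinib) and 12.8 and 3.90 (vehicle, 1.78, 0.28 to 2.93). The downstream promoter, the second RefSeq record of the gene, had 11.4 and 12.3 (sunitinib, -0.09, -0.66 to 0.43) and 7.29 and 16.0 (vehicle, -0.97, -3.03 to 0.26). The 3 windows of E2f2 had ratios of 2.60, 1.84 and 1.17 (sunitinib) and of 1.61 (-1.87 to 3.54), 1.78 (-0.09 to 3.11) and 0.11 (-2.43 to 1.54) with vehicle. Those of Cdk6 had 2.21, 1.43 and 0.55 (sunitinib), and with vehicle 2 and 4 fragments (2.96, -0.66 to 5.61), 0 and 20, and 1 and 19. So no vehicle interval of an E2f2 or Cdk6 window was above 0.

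Of the kinases, Cdk6 (chr5:3341485-3531008), the partner of D-type cyclins known for its role in blood cells, was highest in myeloid-like nuclei, with 330.5 FPM in the sunitinib and 283.2 in the vehicle library, and next in mural-like nuclei (239.7 and 256.1) and B lymphocyte-like nuclei (247.0 and 219.7). In T lymphocyte-like nuclei Cdk6 had 193.1 against 171.2 in other nuclei (sunitinib, 0.17, 0.04 to 0.30) and 174.9 against 162.8 (vehicle, 0.11, -0.21 to 0.40). Cdk4, the other partner, had 18.9 against 27.6 (sunitinib, -0.54, -0.96 to -0.16) and 21.9 against 27.6 (vehicle, -0.28, -1.31 to 0.50). Cdk1, the mitotic kinase, did not differ beyond its interval (0.13, -0.30 to 0.53, and 0.14, -0.96 to 0.96). Of the E2F factors, E2f2 (chr4:136172394-136196057) had 94.3 in T lymphocyte-like and 49.3 in other nuclei (sunitinib, 0.94, 0.73 to 1.14) and 82.0 and 47.9 (vehicle, 0.79, 0.30 to 1.23). E2f1, the founding member of the family, had 32.0 and 29.1 (sunitinib, 0.14, -0.19 to 0.46) and 36.4 and 28.7 (vehicle, 0.37, -0.40 to 1.00).

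The 11 replication genes summed to a log2 ratio of 0.35 (0.27 to 0.44) in T lymphocyte-like over other nuclei of the sunitinib library and 0.44 (0.26 to 0.62) in the vehicle library, with 10 of 11 higher in each (56.8% and 55.6% of all genes were). Mcm2 (chr6:88883474-88898780), a subunit of the helicase, had 57.4 FPM in T lymphocyte-like and 24.2 in other nuclei (sunitinib, 1.24, 0.96 to 1.52) and 56.5 and 30.3 (vehicle, 0.92, 0.31 to 1.44). Mcm7, another subunit of the same ring, was the 1 lower gene, with 27.7 and 39.2 (sunitinib, -0.49, -0.84 to -0.17) and 25.5 and 34.5 (vehicle, -0.39, -1.32 to 0.34). Its region overlaps Cops6 and Ap4m1. Mcm5 had 38.3 and 30.9 (sunitinib, 0.31, 0.00 to 0.61) and 31.0 and 26.1 (vehicle, 0.28, -0.56 to 0.96). Pcna, the sliding clamp of the polymerases, had 36.6 and 29.8 (sunitinib, 0.30, -0.02 to 0.60) and 47.4 and 28.3 (vehicle, 0.76, 0.09 to 1.33).

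Genes of mitosis and the mitotic cyclins were higher as well. The 8 mitosis genes summed to 0.53 (0.41 to 0.64) (sunitinib library) and 0.68 (0.43 to 0.92) (vehicle library), T lymphocyte-like over other nuclei. The cyclins of types E, A and B summed to 0.63 (0.50 to 0.76) and 0.67 (0.37 to 0.94), with 5 of 5 higher in each library (56.8% and 55.6% of all genes). At start sites 5 of 5 (sunitinib library) and 4 of 5 (vehicle library) were higher, against 63.8% and 61.7% of all genes. Plk1 (chr7:122159439-122169873) had 28.3 FPM in T lymphocyte-like and 13.9 in other nuclei (sunitinib, 1.03, 0.64 to 1.42) and 29.1 and 13.1 (vehicle, 1.19, 0.29 to 1.92). With fragments under 150 bp alone the vehicle ratio was -0.18 (-3.58 to 1.46). Its printed promoter, which holds CHR letters, had 10.9 and 5.93 (sunitinib) and 16.4 and 5.07 (vehicle, 1.75, 0.46 to 2.76). The other printed promoters with CHR letters differed. Ccnb2 stood at 0.95 (sunitinib, 0.08 to 1.77) and 0.91 (vehicle, -1.19 to 2.26). The Top2a promoter stood at -0.04 (sunitinib, -0.70 to 0.55) and 0.48 (vehicle, -1.13 to 1.57). Ccnb1, cyclin B1, had 27.4 and 16.2 (sunitinib, 0.76, 0.38 to 1.14) and 34.6 and 16.4 (vehicle, 1.11, 0.30 to 1.78). Ccna2, cyclin A2, had 41.7 and 29.2 (sunitinib, 0.52, 0.21 to 0.81) and 45.5 and 29.9 (vehicle, 0.63, -0.05 to 1.21). Mki67 (chr7:135689784-135716361) had 44.8 and 28.6 (sunitinib, 0.65, 0.36 to 0.94) and 51.0 and 26.8 (vehicle, 0.95, lower bound 0.30). Top2a had 32.6 and 23.1 (sunitinib, 0.50, 0.16 to 0.83) and 36.4 and 21.6 (vehicle, 0.79, 0.01 to 1.43). Of the printed promoters with E2F letters, Mcm5 stood at 0.03 (-0.45 to 0.48; sunitinib) and -0.28 (-2.07 to 0.87; vehicle), and Mcm6 at 0.46 (0.01 to 0.89) and 0.09 (-1.23 to 1.04).

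Sunitinib was then set against vehicle. Over all called nuclei 28 of 35 genes were higher under sunitinib (51.3% of all genes were), 6 by at least 1.2-fold (12.5%), and 0 were lower by that fold (13.0%). The list summed to 1496.6 FPM under sunitinib and 1364.7 under vehicle, for a log2 ratio of 0.13 (0.10 to 0.17), and its median was 0.10, against 0.01 for all genes. The share of T lymphocyte-like nuclei moved with this, and the T cell markers summed to 808.4 under sunitinib and 390.7 under vehicle (13 of 13 higher, 0 at 0). Fewer cells of a type and less open chromatin per cell cannot be told apart in such sums, so the classes were read one by one. In T lymphocyte-like nuclei the list stood at 1829.6 under sunitinib and 1863.7 under vehicle (-0.03, -0.12 to 0.07), with 14 of 35 genes higher (48.4% of all genes). Outside the lymphocyte-like classes it stood at 1349.5 and 1315.9 (0.04, 0.00 to 0.07), with 22 of 35 higher (48.4%) and a median of 0.03, against -0.01 for all genes. T cell markers were also higher outside those classes, at 354.7 under sunitinib and 275.4 under vehicle (12 of 13 higher, 0 at 0), and their part in the remaining difference was not tested. In cardiomyocyte-like nuclei the ratio was -0.02 (-0.17 to 0.13). In vascular endothelial-like nuclei it was 0.05 (0.00 to 0.11), and -0.01 (-0.06 to 0.05) against start-site fragments. Intervals lay wholly above 0 in myeloid-like nuclei (0.16, 0.02 to 0.30) and in the cluster led by Npr3 (0.20, 0.02 to 0.36). The medians of all genes there were 0.04 and 0.07. The share of fragments at start sites was also higher under sunitinib than vehicle, at 31.7% against 30.3% (myeloid-like) and 27.5% against 26.0% (Npr3-led). Its part in these ratios was not tested. Intervals of the other classes reached or included 0. In vascular endothelial-like nuclei 23 of 35 genes were higher (55.1%). Among fragments outside called nuclei 32 of 35 were higher (61.5%).

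**Figure D5:**
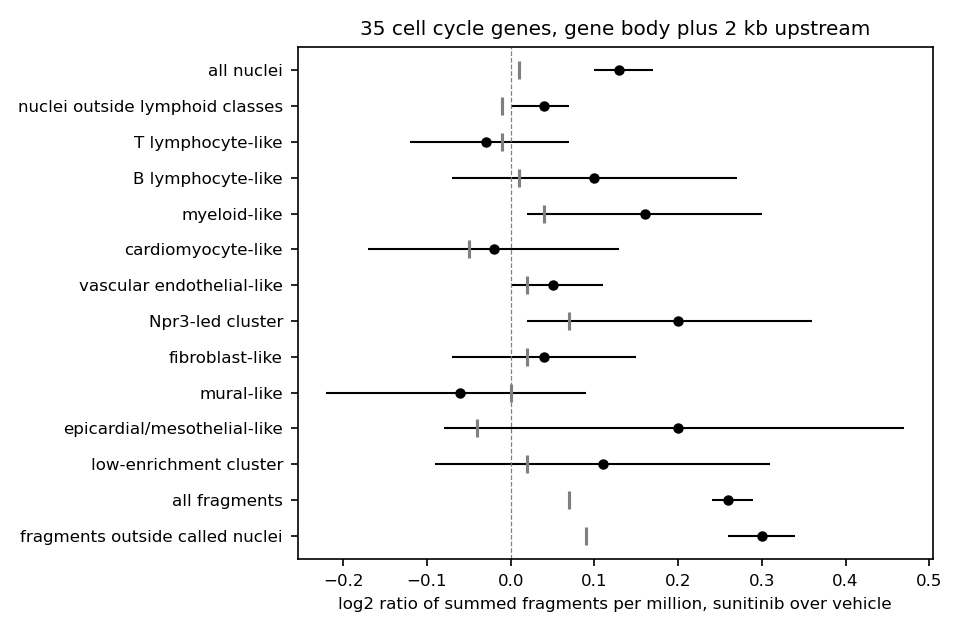
Log2 ratio of the summed FPM of the 35 cell cycle genes, sunitinib over vehicle (x axis), over all nuclei, by class, and over all fragments. Points carry exact conditional intervals and grey ticks are the median ratio of all genes. All nuclei stand at 0.13, T lymphocyte-like nuclei at -0.03 and cardiomyocyte-like nuclei at -0.02.

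Ccnd3 followed the same course, and E2f2 did so in part. Over all nuclei Ccnd3 had 226.9 FPM under sunitinib and 192.7 under vehicle (0.23, 0.15 to 0.32), but 179.3 and 177.5 outside the lymphocyte-like classes (0.01) and 335.6 and 358.9 within T lymphocyte-like nuclei (-0.10, -0.32 to 0.13). E2f2 had 61.5 and 50.1 over all nuclei (0.29) and 48.2 and 47.1 outside the lymphocyte-like classes (0.03). Within T lymphocyte-like nuclei the E2f2 level given above was higher under sunitinib than under vehicle, and its interval is not given here. Mki67 had 33.0 and 28.4 over all nuclei (0.21, lower bound -0.02) and 29.0 and 26.2 outside (0.15, lower bound -0.13). The highest gene over all nuclei was Aurka, at 31.7 under sunitinib and 24.4 under vehicle (0.38), which stayed at 0.30 outside the lymphocyte-like classes. Ect2 (chr3:27097222-27153878), which activates RhoA for the last step of cell division, also had 0.38 over all nuclei (36.3 and 27.9), but -0.13 (-0.36 to 0.10) among fragments outside called nuclei. In vascular endothelial-like nuclei Ect2 had 165 fragments under sunitinib and 68 under vehicle (35.9 and 20.8 FPM; 0.78, 0.37 to 1.22), and 107 and 45 at start sites (0.75, 0.24 to 1.29). Cdc20, which activates the anaphase-promoting complex, was the other high gene in that class (32.2 and 24.2; 0.41, 0.01 to 0.83), and Aurkb the lowest (13.7 and 19.6; -0.52, -1.04 to 0.01). Mcm2 went the other way at its start site, with 71 fragments under sunitinib and 88 under vehicle in vascular endothelial-like nuclei (15.4 and 26.9 FPM; -0.80, -1.27 to -0.34), and its gene body ratio was -0.38 (-0.77 to 0.02). In fibroblast-like nuclei Mki67 had 41 fragments under sunitinib and 13 under vehicle (32.8 and 12.6 FPM; 1.35, 0.46 to 2.41), and 27 and 10 at start sites (1.12, 0.07 to 2.37). Top2a, the other proliferation marker, had 22.4 and 24.2 in the same nuclei. Of 125 pairs of a gene and a class with at least 50 fragments over gene body plus 2 kb upstream, 3 had an interval off 0 (Ect2 and Cdc20 in vascular endothelial-like nuclei and Mki67 in fibroblast-like nuclei), against 7.10% of all such pairs over all genes.

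The other genes of the cycle, 106 in 4 lists, were counted in the same way. In T lymphocyte-like over other nuclei 30 of 33 further replication genes were higher (sunitinib library) and 28 of 33 (vehicle library), with medians of 0.46 and 0.43. Of all genes 56.8% and 55.6% were higher, with medians of 0.09 and 0.10. Among them Cdc7, the kinase that fires origins, stood at 1.02 and 1.39, Lig1, the ligase that joins Okazaki fragments, at 0.96 and 1.38, and the polymerase alpha subunit gene Pola2 at -0.73 and -0.67. Of 45 measured mitosis genes 39 were higher in the sunitinib and 36 in the vehicle library, with medians of 0.40 and 0.48. Of 14 transcription factors of the cycle 12 and 11 were higher, with E2f6, a repressor of the E2F family, at -0.47 and -1.61 as the lowest. Of the inhibitors and pocket proteins 8 of 13 and 7 of 13 were higher, near the shares of all genes. Cdkn1b, the inhibitor p27, stood at 0.59 (sunitinib library) and 1.00 (vehicle library), and Cdkn2b, the inhibitor p15, at -1.77 and -0.99. Under sunitinib over vehicle, outside the lymphocyte-like classes, 15 of 33 replication genes and 22 of 45 mitosis genes were higher, near the 48.4% of all genes, with summed ratios of -0.02 (-0.07 to 0.02) and 0.00 (-0.04 to 0.04). In the same nuclei the inhibitors and pocket proteins stood at 0.06 (0.01 to 0.12), with 8 of 13 higher. The transcription factors stood at -0.02 (-0.08 to 0.04), with 7 of 14 higher. Gmnn, geminin, the inhibitor of Cdt1, was the highest replication gene there (20.9 under sunitinib and 14.8 under vehicle; 0.50, 0.15 to 0.85), and Mcm8 the lowest (19.1 and 26.1; -0.45, -0.75 to -0.14).

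In the sunitinib plus Yoda1 library 262 fragments fell on the 35 genes. They came to 1015.4 FPM, against 1310.0 in the whole sunitinib library and 1092.9 in the whole vehicle library. The log2 ratio was -0.36 (-0.55 to -0.19) over sunitinib, with 27 of 35 genes lower and 8 higher (45.8% of all genes were higher), and -0.10 (-0.29 to 0.07) over vehicle, with 16 lower and 19 higher (50.8%). Both comparisons share the sunitinib plus Yoda1 library. The filter of 100 read pairs was applied to that library alone, as 0 fragments of the others reached it. It had 358.5 read pairs per fragment, against 8.88 with sunitinib and 7.96 with vehicle. Fragments that shared start and end with another barcode were not merged, so its counts may not be independent. Beside this, T cell markers summed to 290.7 FPM with sunitinib plus Yoda1, against 762.3 with sunitinib and 410.0 with vehicle, and 2 of 13 were at 0. Heart muscle markers summed to 1899.1, against 898.4 with sunitinib and 952.2 with vehicle. Their part in the difference was not tested. Against start-site fragments the ratio over sunitinib was -0.15 (-0.33 to 0.02). Single genes had from 0 fragments (Plk1) to 47 (Ccnd3, 182.2 FPM, against 202.0 with sunitinib and 160.0 with vehicle). For Plk1, 0 allows up to 14.3 FPM, which lies below the 16.9 with sunitinib but above the 13.3 with vehicle. E2f2 had 4 fragments (15.5 FPM, against 55.9 with sunitinib, -1.68, -3.73 to -0.49, and 43.3 with vehicle, -1.31, -3.36 to -0.12). Ccnd2 was the highest over sunitinib, with 20 fragments (77.5 FPM, against 51.2 with sunitinib, 0.63, -0.12 to 1.23). Mki67 and Top2a had 4 fragments each, with ratios over sunitinib of -0.87 (-2.92 to 0.32) and -0.49 (-2.54 to 0.71).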

How the data were processed

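The deposited fragments were made on mm10 with cellranger-arc, per the file headers, in version 2.0.2 (sunitinib plus Yoda1) or 2.0.0 (the other libraries), so version and group cannot be told apart. Each deposited value is a count of the read pairs behind a unique fragment, not normalized. The submitters' processing notes name Cell Ranger and Signac. Nuclei needed at least 1000 fragments, a start-site enrichment of at least 4, and fewer than 4 fragments of 150 to 300 bp per fragment under 150 bp. No doublet caller was run. Nuclei were clustered on 60000 tiles of 5 kb without the 1039 tiles over cell cycle genes (30 components, 20 neighbours, Leiden resolution 0.8, leidenalg 0.10.2) and named by markers at 2-fold or more. Fragments over GENCODE M21 genes were added up for each class in a library and scaled to 1000000 fragments of those nuclei. Ratios had 0.5 added to each side. A gene needed 50 fragments over both sides, 20 at start sites. Intervals are exact Poisson, Clopper-Pearson or conditional, computed with scipy 1.17.1. On independent Poisson counts simulated from the T lymphocyte-like counts of sunitinib and vehicle (13364 genes) 95.8% of intervals held the true ratio. Such counts carry no spread between nuclei or animals, so this checks the calculation alone. The members and lists were chosen with earlier results of these data known. All members were counted, and values were given for 15 key genes and for the 3 highest and 3 lowest of a comparison. Ect2, Mcm2, Aurka and Mki67 in single classes were named after their values were seen. Alternatives were another region, scaling, fragment length, nucleus minimum and clustering, and sets without the deepest nuclei or overlapping genes.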

Additional observations from a re-analysis of the deposited data

Results flagged for a closer look

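Fragments outside the called nuclei, which enter none of the comparisons by class, also held a difference. There the 35 genes summed to 1083.5 FPM under sunitinib and 878.4 under vehicle, for a log2 ratio of 0.30 (0.26 to 0.34), with 32 of 35 genes higher (61.5% of all genes were). It is larger than the 0.13 over called nuclei. Within 1 kb of start sites the ratio was 0.47 (0.41 to 0.53), where the median of all genes was 0.28. T cell markers among the same fragments summed to 706.3 under sunitinib and 425.2 under vehicle (13 of 13 higher, 0 at 0), and 22.9% of all fragments of the sunitinib library lay at start sites, against 19.6% in the vehicle library. Their part in the result was not tested.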

How the results depend on the processing

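No paired analysis was possible because each group had 1 library. Of 335 alternatives for summed ratios and counts of genes, 283 stayed within the interval or within 1.5 times the count, and 52 moved. In 10 of the 335 the sign was opposite to the main value, 2 of them among the moved, in vascular endothelial-like nuclei and the low-enrichment cluster, whose main intervals reached or included 0. Of 1952 for single genes, 1840 stayed, 110 moved and 2 reversed: Ect2 over all nuclei was -0.13 among fragments outside called nuclei, and Plk1 in T lymphocyte-like over other nuclei of the vehicle library was -0.18 with fragments under 150 bp. The causes of these moves were not tested. Sunitinib over vehicle in all nuclei, the 35 genes summed stood at 0.09 both against start-site fragments and with fragments under 150 bp, 0.18 without the deepest nuclei, 0.07 at start sites against start-site fragments, 0.26 over all fragments and 0.30 outside called nuclei. In the same comparison other mitosis genes stood at 0.05, 0.03, 0.14, 0.04, 0.19 and 0.19 under these 6 settings. Other replication genes had 0.03 against start-site fragments, 0.03 with at least 3000 fragments per nucleus, 0.02 at start sites against start-site fragments, 0.19 over all fragments and 0.22 outside called nuclei. The inhibitors and pocket proteins had 0.02 with fragments under 150 bp, 0.04 with at least 3000 fragments, 0.01 at start sites against start-site fragments, 0.25 over all fragments and 0.31 outside called nuclei, and the transcription factors 0.10 with fragments under 150 bp, 0.15 over all fragments and 0.20 outside. Outside the lymphocyte-like classes 14 of 24 genes without an overlapping neighbour were higher, and in T lymphocyte-like nuclei 9 were higher with fragments under 150 bp. Fewer genes can reach 50 fragments when short fragments alone are counted, and the number that did is not given here. The shares of all genes under these settings were not counted. Myeloid-like nuclei had 0.31 without the deepest nuclei, vascular endothelial-like nuclei -0.01 against start-site fragments, and the low-enrichment cluster -0.11 at start sites against start-site fragments. T lymphocyte-like over other nuclei, the sunitinib library gave 0.34 at start sites, 0.25 against start-site fragments, 0.32 with fragments under 150 bp, 0.17 with both start-site settings, and 0.36 both without Ccnd3 and Cdk6 and over named non-lymphoid nuclei. The vehicle library gave 0.39, 0.30 and 0.20 for start sites, start-site fragments and both. Cardiomyocyte-like over other nuclei, an alternative set added after the data were seen, gave -0.29 against start-site fragments and -0.23 with both in the sunitinib library, and -0.28, -0.27 with fragments under 150 bp and -0.22 with both in the vehicle library. In that comparison and the sunitinib library, 13 of 35 genes were higher against start-site fragments (58.2% of all genes) and 13 with both (47.3%). With both in the vehicle library 16 of 35 were higher, near the 46.8% of all genes. In the sunitinib library 9 were higher with fragments under 150 bp and 5 with at least 3000 fragments. There 0 were higher at resolution 1.5 and 1 with cell cycle genes kept in the tiles. The shares of all genes under these last settings were not counted. Sunitinib plus Yoda1 over sunitinib was -0.15 against start-site fragments. Depth limits single genes. Over gene bodies 1 of 35 genes reached 50 fragments in epicardial or mesothelial-like nuclei, 2 in the low-enrichment cluster, and 4 each in B lymphocyte-like, mural-like and Npr3-led nuclei. Having 1 library per group leaves the spread between animals unknown.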
